A study of Mus musculus with 8 samples.

Results

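Barcodes that received no guide call were compared with nontargeting control cells in a single-cell CRISPR screen of tumour-infiltrating OT-I T cells. A barcode counted as without guide call when it was absent from the guide-call table of its library. A barcode counted as nontargeting when exactly 1 guide was called and that guide had no target in the mouse genome. Both groups had to hold at most 10% mitochondrial UMIs, 3000 to 50000 gene UMIs and fewer than 10 UMIs summed over Krt8, Krt18, Krt19, Lyz2, C1qa, Cd74, Col3a1 and Sparc, which mark tumour epithelium, macrophages and fibroblasts. Of 56359 barcodes in 4 libraries, 28447 had no guide call, and 20509 of these passed the limits, beside 2595 nontargeting barcodes. The groups were set against each other within each library, so that treatment and 10x Genomics channel were shared by both.

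The donor cells were CD8+ T cells with the OT-I receptor, which recognises an ovalbumin peptide, and came from Cas9 knock-in mice. They carried a lentiviral library of guides against metabolic genes and were enriched for CD90.1, the reporter of the vector (a Thy1 allele product), before transfer into mice with orthotopic KPC_OVA tumours. KPC_OVA is a mouse pancreatic ductal adenocarcinoma line that expresses ovalbumin, and the recipients were Cas9 mice as well. Treatment was anti-PD-1 for 3 libraries and control IgG for 1, and CD90.1+ cells were sorted from the primary tumour 7 days after transfer. Both groups of barcodes were read from the same sorted suspension in every library. The experiment was repeated, but the sources used here do not tie animals or repeats to single libraries. Whether anti-PD-1 replicates 1 and 2 came from separate pools is likewise not given, so p-values measure the spread between libraries, which may be technical. The anti-PD-1 replicates held 5537, 5945 and 3688 barcodes without call that passed, against 316, 367 and 719 nontargeting barcodes. The IgG library held 5339 against 1193. Where 4 values follow each other below, they belong to anti-PD-1 replicate 1, replicate 2, replicate 3 and IgG, in this order.

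In CROP-seq, the guide is transcribed a second time within a polyadenylated message of the vector, so that it can be read in the same droplet as the messages of the cell. A guide is called only when its UMIs in a barcode exceed a threshold. A missing call can thus come from a cell without a vector or from a cell whose guide message was too rare to be captured, and these cannot be told apart for a single barcode. Nontargeting guides mark cells that were transduced and carry Cas9 activity without an intended cut, which is why they serve as the control state of the screen. In tumours, antigen-stimulated CD8+ T cells switch on ribosome production, proliferation, cytokines and cytotoxic granules, whereas resting and recirculating cells keep Klf2, S1pr1 and Tcf7, and prolonged stimulation adds inhibitory receptors such as PD-1.

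The control group rested on 34 nontargeting guides. The 3 with most barcodes are shown as examples of the control sequences, 5′ to 3′ as the feature tables gave them.
NonTargetingControlGuideForMouse_0030: gctcggaccttttagacgtc
NonTargetingControlGuideForMouse_0008: acccatcgggtgcgatatgg
NonTargetingControlGuideForMouse_0004: acgtgtaaggcgaacgcctt
The first was called in 201 barcodes, or 7.75% of the control group, with 61, 104, 10 and 26 in the 4 libraries. It held 24.2% of the nontargeting barcodes of replicates 1 and 2 together, and was rare in the other libraries. The second was called in 8, 11, 53 and 50 barcodes and the third in 21, 24, 30 and 31, respectively. The control group was therefore unevenly made in replicates 1 and 2, and the main counts are also given without the first guide.

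Barcodes without call made up 68.3%, 69.8%, 42.4% and 39.7% of all barcodes. They failed the limits more often than the control cells. Of the barcodes without call, 84.7%, 86.3%, 63.8% and 57.8% passed, against 96.6%, 96.1%, 95.1% and 91.1% of the nontargeting barcodes. Fewer than 3000 gene UMIs were found in 11.8%, 11.6%, 34.9% and 41.9% of barcodes without call and in 1.22%, 2.36%, 3.97% and 8.63% of nontargeting ones. More than 10% mitochondrial UMIs were found in 11.8%, 9.87%, 20.8% and 20.4% against 1.22%, 0.785%, 1.85% and 1.76%. The results below concern only the uncalled barcodes that passed the same limits as the controls.

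Within the limits, barcodes without call were still shallower in each of the 4 libraries. Their median gene UMIs were 13524, 13254, 8679 and 4917, against 17467, 16988, 12476 and 6625 for nontargeting barcodes. The mean difference was -3295.5 UMIs with an SD of 1062 over the libraries, and -1685 UMIs within 5000 to 20000 gene UMIs. The median mitochondrial share was 0.121 percentage points higher, again in each of the 4 libraries. Since the limits act on these same measures, the differences are a description and depend on where the limits lie. After all barcodes were thinned to 3000 UMIs, the median number of genes detected was 1286, 1259, 1272 and 1264 without call against 1282.5, 1262, 1257 and 1261 with a nontargeting guide.

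**Figure D1:**
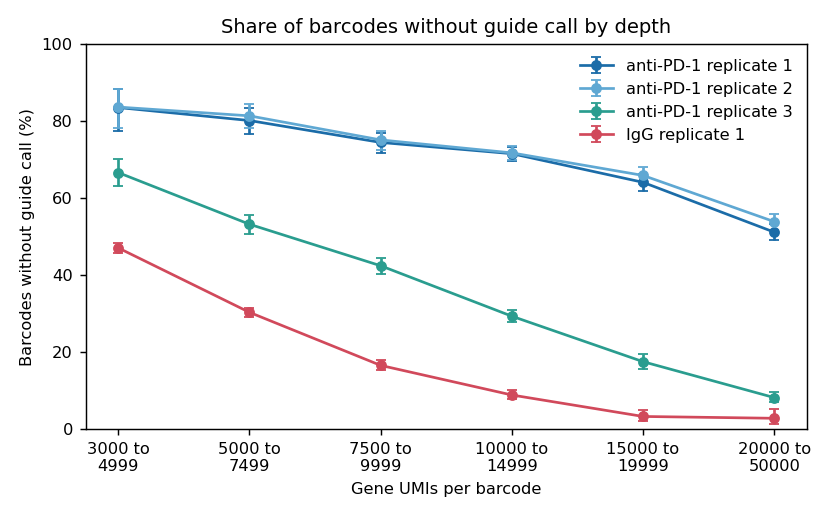
Percent of barcodes within the limits that had no guide call (y axis) in 6 ranges of gene UMIs per barcode (x axis), with 1 line for each of the 4 libraries and exact 95% intervals as bars. The share fell along the depth ranges in every library, to 51.2% and 53.9% in anti-PD-1 replicates 1 and 2 but to 8.22% and 2.86% in anti-PD-1 replicate 3 and IgG.

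The share of barcodes without call decreased with depth in every library, but it reached very different levels. From the range of 3000 to 4999 gene UMIs to that of 20000 to 50000, it went from 83.5% (exact 95% interval 77.5 to 88.4) to 51.2% (49.1 to 53.3) in anti-PD-1 replicate 1. In replicate 2 it went from 83.6% (78.1 to 88.2) to 53.9% (51.8 to 56.0). Replicates 1 and 2 had nearly the same curve, and over 1 in 2 of their deepest barcodes had no call. In replicate 3 the share went from 66.6% (63.0 to 70.1) to 8.22% (6.98 to 9.61), and in IgG from 47.1% (45.8 to 48.3) to 2.86% (1.38 to 5.19). The deepest barcodes of replicates 1 and 2 thus lacked a call at a share that no interval of the other libraries reached at that depth. These intervals cover counting error only.

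**Figure D2:**
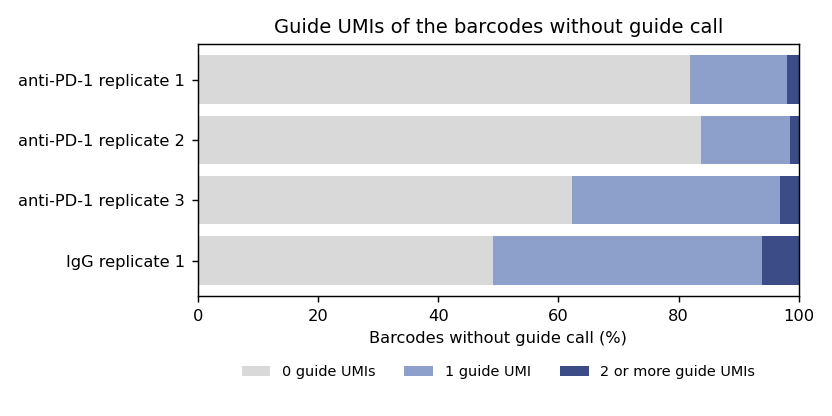
Percent of the barcodes without guide call (x axis) with 0, 1 or at least 2 UMIs over all guide features, as stacked bars for each of the 4 libraries. Barcodes with 0 guide UMIs took 81.9% and 83.7% in anti-PD-1 replicates 1 and 2, 62.2% in replicate 3 and 49.2% in IgG.

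Most barcodes without call held few or no guide UMIs. No guide UMI was counted in 81.9%, 83.7%, 62.2% and 49.2% of them, exactly 1 in 16.1%, 14.8%, 34.8% and 44.7%, and at least 2 in 2.04%, 1.43%, 3.06% and 6.16%. No single guide had more than 2 UMIs in such a barcode. The called guide of nontargeting barcodes had a median of 4, 3, 3 and 4 UMIs, and the call rested on a single UMI in 19.9%, 29.4%, 13.4% and 6.54% of them. The 2 groups thus met at 1 to 2 UMIs of a guide.

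The uncalled guide UMIs were spread over 140, 158, 178 and 229 of the 280 guides. Nontargeting guides held 15.4%, 10.9%, 12.4% and 11.7% of these UMIs, close to their share of 12.7%, 14.3%, 11.3% and 11% among barcodes with a single called guide. In replicate 1 the guide with most uncalled UMIs was NonTargetingControlGuideForMouse_0030, with 4.53% of them, which was also the most frequent nontargeting guide among the calls there. Free guide messages were not separated from those of the cell.

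The uncalled barcodes were CD8+ T cells by their messages. The summed level of 14 T cell identity genes, among them the CD3 chains, Cd8a and Lck, ranged from 11890 to 12340 CPM (counts scaled to the same total in each group and library) without call and from 10270 to 11330 with a nontargeting guide. All 12 members called in the edgeR comparison described further on were higher without call, and 6 of 14 were called after depth matching, again all higher. Cd8a, a chain of the CD8 coreceptor, was read at 653, 676, 1009 and 985 CPM without call and 627, 711, 899 and 853 CPM with a nontargeting guide, with a log2 difference of 0.06 ± 0.04 (SE) and an edgeR adjusted p of 0.295. Thy1, the gene of the reporter protein, differed by 0.03 ± 0.04 with an edgeR adjusted p of 0.551. The counts of Thy1 do not separate the allele of the vector from that of the cell.

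Defining markers of CD4+, B and natural killer cells were rare in both groups. After thinning, Cd4 was seen in at most 0.0813% of the uncalled barcodes of any library and in 0% of the nontargeting ones. Foxp3, the regulatory T cell factor, was seen in a mean of 0.28% against 0.195%, and the B cell gene Cd79a in 0.0344% against 0%. Ncr1, a receptor of natural killer cells, had no UMI in either group after thinning. Trdc, the γδ receptor constant gene, was not rare, and was seen in 24.2%, 23.6%, 20.4% and 18.1% of uncalled against 28.2%, 28.6%, 19.6% and 17.6% of nontargeting barcodes after thinning, or in means of 35.4% against 43.4% before it. Its level differed by a log2 value of 0.07 ± 0.05 with an edgeR adjusted p of 0.336. Of 4 tested γδ and innate-like T cell markers, 1 was higher and none lower, with a median of 0.38, and none was called after depth matching. Other markers were common, and their order depended on depth. Pdcd1 was seen in a mean of 57.6% of uncalled against 54.3% of nontargeting barcodes after thinning, and in 84.2% against 88.0% before it. For Cd8b1 these means were 87.4% against 84.3% and 98.4% against 98.7%, and for Havcr2 37.5% against 34.2% and 65.1% against 69.8%. With 13 markers tested and a smallest exact permutation p of 0.13 per marker, no share could pass an adjusted 0.05.

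The summed level of 10 B and plasma cell markers ranged from 66.2 to 81.8 CPM without call and from 48.5 to 77.8 CPM with a nontargeting guide, higher without call in each of the 4 libraries. The 16 myeloid markers ranged from 174 to 250.4 against 164 to 238 CPM, also higher in each library, and the 11 natural killer cell markers from 86.6 to 201 against 81.9 to 209 CPM. Fibroblast and erythroid markers stayed under 1 CPM in both groups. Low levels of myeloid, fibroblast and epithelial markers follow in part from the limit on contamination genes. Among 86 named genes, 80 kept direction and side of the threshold without barcodes that held a UMI of another lymphocyte marker, 5 lost the call and 1 turned, and all 86 kept both with fewer than 3 UMIs of the contamination genes. No doublet caller was run, and 30 to 93 barcode sequences were shared by any pair of libraries, 6 to 11 of them without call in both.

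Where a beta chain segment was read in the uncalled barcodes, it was mostly that of OT-I. The OT-I beta chain uses a Trbv12 segment, and Trbv12-1 and Trbv12-2 took 96.7%, 96.9%, 96.7% and 98.1% of the Trbv UMIs without call against 100%, 99.5%, 96.8% and 98.8% with a nontargeting guide. The mean difference of -1.66 percentage points had the same direction in 4 of 4 libraries and an exact permutation p of 0.13, the smallest that 4 pairs allow. It was -1.01 with the same direction in only 2 of 4 libraries within 5000 to 20000 gene UMIs, and -2.73 without barcodes of other lymphocyte markers. A Trbv12 UMI was read in 34.2%, 33.9%, 22.7% and 14.8% of uncalled barcodes. Among nontargeting barcodes these shares were 33.9%, 40.6%, 26.6% and 17.9%, so most barcodes of both groups gave no such UMI. Another Trbv segment was read in 71, 74, 29 and 17 uncalled barcodes, or 1.28%, 1.24%, 0.786% and 0.318% of all of them, against 0%, 0.272%, 0.834% and 0.251% of all nontargeting barcodes. The uncalled share was the higher one in replicates 1, 2 and IgG and the lower one in replicate 3. The alpha chain was less clear, since Trav14 segments, to which the OT-I alpha chain belongs, took only 7.64%, 7.26%, 5.4% and 3.98% of Trav UMIs without call and 7.53%, 2.38%, 12% and 4.83% with a nontargeting guide.

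A minority of uncalled barcodes in anti-PD-1 replicates 1 and 2 carried messages of Y-linked genes. A UMI of Ddx3y, Eif2s3y, Kdm5d or Uty was read in 131 uncalled barcodes of replicate 1, or 2.37% (exact 95% interval 1.98 to 2.80), and in 110 of replicate 2, or 1.85% (1.52 to 2.23). The counts were 2 and 0 in replicate 3 and IgG. Among nontargeting barcodes they were 0, 5, 1 and 1, and a count of 0 of 316 in replicate 1 allows a share of up to 0.949% by a floor of 3 counts, or 1.16% by the exact interval. The 5 of 367 in replicate 2 were 1.36% (0.444 to 3.15), an interval that holds the share of the uncalled barcodes there. Of the barcodes with 1 targeting guide, 11 of 2174 in replicate 1 held a Y-linked UMI, or 0.506% (0.253 to 0.904). In replicate 2 it was 7 of 2197, or 0.319% (0.128 to 0.655). These intervals and floors treat barcodes of 1 library as independent and cover counting error only. At least 2 such UMIs were found in 82 and 67 uncalled and 0 nontargeting barcodes of replicates 1 and 2.

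The barcodes with at least 2 Y-linked UMIs differed from the other uncalled barcodes in several genes. Xist, the transcript of the inactive X chromosome, was read in 20.7% and 20.9% of them in replicates 1 and 2, against 97.9% and 96.3% of the uncalled barcodes without Y-linked UMI. Another Trbv segment was read in 25.6% and 23.9% against 0.814% and 0.771%. Xcl1 stood at 99.1 and 160 CPM against 1252 and 1368 CPM, Gzmb at 2606 and 3381 against 1555 and 1595 CPM, and Cd8a at 901 and 854 against 648 and 673 CPM. These barcodes were CD8+ and rich in Gzmb, with little Xcl1. They were few, and without all barcodes that carried another Trbv segment or a Y-linked UMI the main comparison called 3202 genes instead of 3297.

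Expression was compared on UMI counts summed per library and group, with edgeR's quasi-likelihood test, the library as a block and a Benjamini-Hochberg adjusted p of 0.05 over 11605 genes. Barcodes without call differed from nontargeting cells in 3297 genes, which is 28.4% of those tested. Of these, 1552 genes (13.4%) were higher and 1745 (15.0%) lower without call, and the median log2 difference over all genes was 0.02. Listed nucleolar and chaperone genes were lower in barcodes without call, and most interferon-stimulated and T cell identity genes were higher. Replication genes were mostly lower as well, but only with all barcodes.

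Since the groups differed in depth, the comparison was repeated on equal numbers of barcodes of both groups, drawn once at random within bins of 0.05 log10 gene UMIs in each library. This depth-matched comparison was chosen after seeing the data. It held 316, 367, 692 and 1161 barcodes a group and called 1527 of 10423 genes (14.7%), 634 (6.08%) higher and 893 (8.57%) lower. Without the most frequent nontargeting guide, 2731 genes were called with all barcodes and 1214 with the depth-matched ones. Depth-matched values are given beside the gene groups, since several moved by more than 1.5 times and mitotic genes turned.

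**Figure D3:**
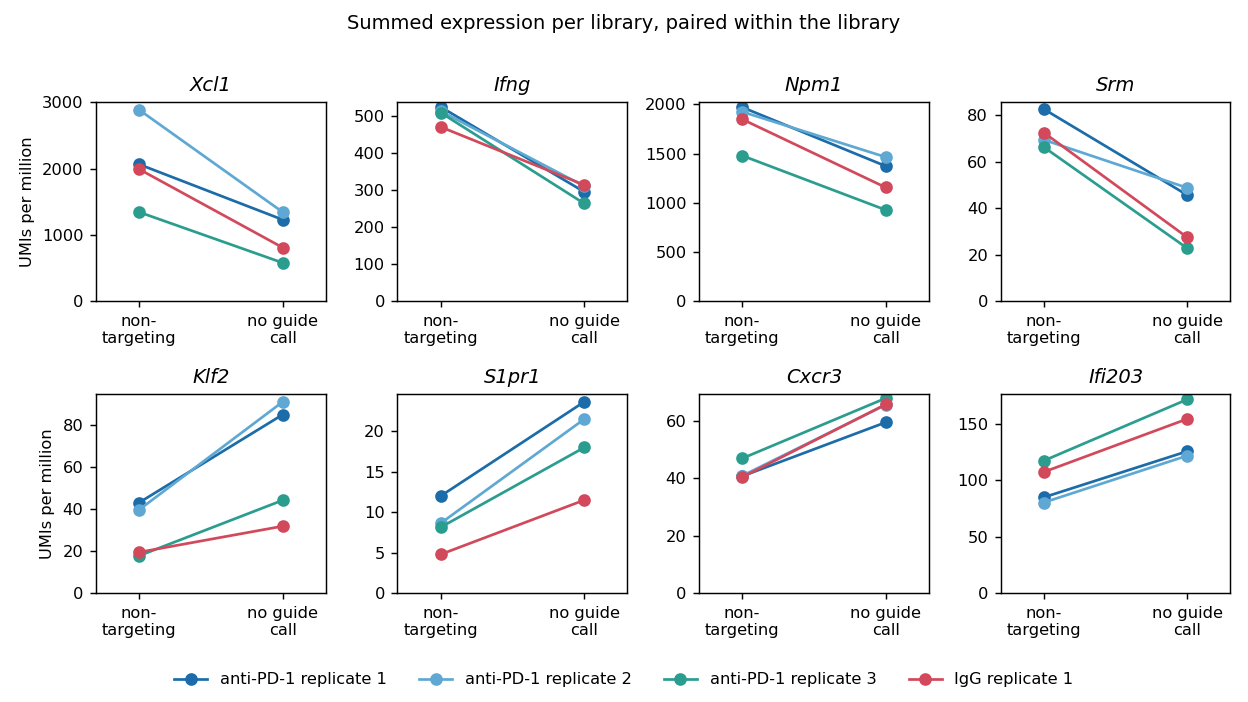
CPM (y axis, from 0) of 8 genes in the summed nontargeting barcodes and the summed barcodes without guide call (x axis), each line joining both values of 1 of the 4 libraries. Xcl1, Ifng, Npm1 and Srm were lower, and Klf2, S1pr1, Cxcr3 and Ifi203 higher, without call in each library, for example 579 to 1345 against 1345 to 2889 CPM for Xcl1.

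Effector molecules at high levels included Xcl1 (ENSMUSG00000026573), a chemokine that draws cross-presenting dendritic cells. Xcl1 stood at 1230, 1345, 579 and 809.6 CPM in barcodes without call and at 2066, 2889, 1345 and 1993 CPM in nontargeting cells. The level without call was lower in every library, and the ranges met at 1345 CPM. The log2 difference was -1.12 ± 0.07 (SE), a 2.18-fold lower level, with an edgeR adjusted p of 5.73e-07. It was -0.99 ± 0.05 in depth-matched barcodes.

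Ifng, the cytokine interferon-γ, stood at 295, 311, 264 and 314 CPM without call and at 525, 513, 509 and 471 CPM in nontargeting cells. All values without call lay below all control values. The log2 difference was -0.80 ± 0.05 with an edgeR adjusted p of 5.73e-07, and -0.93 ± 0.06 in depth-matched barcodes. Ccl3, a chemokine gene, was lower by a log2 difference of -0.30 ± 0.05 with an edgeR adjusted p of 9.53e-04. In IgG its level was 721 CPM without call against 714 CPM, so that the pair there was nearly level. Without the most frequent nontargeting guide the difference of Ccl3 was -0.20 ± 0.05. It was no longer called among barcodes of 5000 to 20000 gene UMIs, at -0.11 with an edgeR adjusted p of 0.0776, or without the barcodes of other lymphocytes, at -0.15 with an edgeR adjusted p of 0.152.

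The granzymes Gzmd and Gzme showed the steepest fitted differences, but their depth-matched levels lay far apart between libraries. Gzme stood at 7.01, 12.3, 8.11 and 5.05 CPM without call against 30.3, 37.1, 36.6 and 37.7 CPM, with a log2 difference of -2.16 ± 0.14 and an edgeR adjusted p of 5.73e-07. In the depth-matched draw its level without call ranged from 0.506 CPM in replicate 1 to 79.3 CPM in replicate 2, and its difference of -0.99 ± 0.36 did not pass, with an edgeR adjusted p of 0.0594. Gzmd moved alike, from -1.86 ± 0.14 to -0.88 ± 0.34 with an edgeR adjusted p of 0.0842. These neighbouring granzymes are near-identical copies, so their reads may be split between them. Gzmc, from the same gene cluster, was lower by -0.84 ± 0.13, and by -0.57 ± 0.13 after depth matching. In that draw Gzmc stood at 7.08, 66.2, 96.6 and 82.0 CPM without call against 33.5, 52.6, 122.5 and 160.5 CPM, higher without call in replicate 2.

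Not all effector molecules were lower. Of 18 on the list, 3 were higher, 7 lower and 8 not called, with a median log2 difference of -0.12, and depth matching again gave 3 higher and 7 lower with a median of -0.21. The 3 higher genes were Gzmk at 0.46 ± 0.05, a granzyme of early effector and memory cells, Ccl5 at 0.51 ± 0.05, a chemokine stored by memory and effector cells, and Fasl at 0.35 ± 0.05, a death ligand, each with an edgeR adjusted p under 0.05. In depth-matched barcodes Gzmk differed by 0.36 ± 0.04, Ccl5 by 0.13 ± 0.03 and Fasl by 0.21 ± 0.05. Gzmb, the main granzyme, was read at 1581, 1621, 1930 and 1199 CPM without call and 1488, 1885, 2456 and 1218 CPM in nontargeting cells, and did not pass, with an edgeR adjusted p of 0.0585.

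A list of 40 nucleolar and ribosome biogenesis genes was assembled after values were seen, so that its counts describe these data and give no independent support. It had all 40 members lower and a median log2 difference of -0.59, and 37 lower with a median of -0.47 after depth matching. Npm1, the nucleolar chaperone nucleophosmin, stood at 1373, 1465, 927 and 1156 CPM without call and 1972, 1926, 1480 and 1850 CPM in nontargeting cells. Every uncalled value lay below every control value. The difference was -0.60 ± 0.05 with an edgeR adjusted p of 5.08e-06, and -0.44 ± 0.02 in depth-matched barcodes.

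Ncl, nucleolin, was lower by -0.58 ± 0.05, Nhp2, a core protein of H/ACA ribonucleoproteins, by -0.62 ± 0.06 and Mybbp1a, a nucleolar regulator of ribosomal RNA synthesis, by -0.70 ± 0.06 on the log2 scale. Mettl1, which methylates transfer RNA, was lower by -0.92 ± 0.09. Srm, spermidine synthase, was among the genes with the largest difference. It stood at 45.6, 48.8, 22.7 and 27.4 CPM without call against 82.7, 69.5, 66.3 and 72.6 CPM, without overlap. Its log2 difference was -1.10 ± 0.12 with an edgeR adjusted p of 3.20e-05, and -0.90 ± 0.08 after depth matching.

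Chaperones and the supply of amino acids and one-carbon units went the same way. All 12 genes of a list of cytosolic chaperonin and mitochondrial chaperone genes were lower, with all barcodes and after depth matching. Hspd1, the mitochondrial chaperonin HSP60, stood at 272, 285, 192 and 204 CPM against 414, 380, 355 and 386 CPM, without overlap, and differed by -0.74 ± 0.07. Of 19 tested genes of serine, one-carbon and amino acid supply, 15 were lower and none higher, and 13 were lower after depth matching. Asns, asparagine synthetase, was lower by -0.98 ± 0.12, or -0.64 ± 0.11 after depth matching, and Shmt2, which makes one-carbon units in mitochondria, by -0.73 ± 0.07. Both lists were assembled after values were seen, so their counts describe these data and give no independent support.

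Further named genes with lower levels were Fabp5, a fatty acid binding protein, at -0.89 ± 0.12, Nefh at -0.82 ± 0.09, the mitochondrial ATPase gene Atad3a at -0.80 ± 0.12, and the DNA base repair genes Ung at -0.82 ± 0.12 and Apex1 at -0.79 ± 0.11. Each was lower in 4 of 4 libraries. After depth matching they were -0.52 ± 0.07, -0.63 ± 0.08, -0.55 ± 0.11, -0.51 ± 0.10 and -0.59 ± 0.08, in the same order. Each had an edgeR adjusted p below 0.05 with all barcodes and after depth matching. The heat shock protein gene Hsp90aa1 was lower by -0.51 ± 0.05, and the inflammatory cytokine gene Mif by -0.35 ± 0.04. These were -0.27 ± 0.03 and -0.19 ± 0.02 after depth matching.

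Among genes with a mean log2 CPM of at least 4, the largest rises were those of S1pr1 and Klf2, genes of T cell trafficking and quiescence. Klf2, a transcription factor that keeps T cells quiescent and drives S1pr1, stood at 85.0, 91.1, 44.3 and 31.9 CPM without call and 43.1, 39.7, 17.8 and 19.5 CPM in nontargeting cells. It was higher in each library, while levels of replicates 1 and 2 exceeded those of replicate 3 and IgG in both groups, so that the ranges overlapped. The log2 difference was 1.04 ± 0.08, a 2.05-fold higher level, with an edgeR adjusted p of 2.26e-06, and 0.82 ± 0.08 after depth matching.

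S1pr1, the receptor by which T cells leave tissue, stood at 23.7, 21.5, 18.0 and 11.5 CPM without call and 12, 8.65, 8.15 and 4.80 CPM in nontargeting cells. Within each library the uncalled level was higher. The difference was 1.13 ± 0.09 with an edgeR adjusted p of 3.77e-06 and shrank to 0.65 ± 0.12 after depth matching. Ripor2, a regulator of RhoA, was higher by 0.70 ± 0.07, the chemokine receptor gene Ccr2 by 0.69 ± 0.09 and the long noncoding RNA Mirt1 by 0.70 ± 0.09. After depth matching these were 0.32 ± 0.08, 0.42 ± 0.08 and 0.54 ± 0.10. Wdr95 was also among the 12 largest rises. In depth-matched barcodes it stood at 32.4, 30.9, 43.5 and 35.5 CPM without call against 25.9, 20.8, 35.9 and 30.8 CPM. Cxcr3, a chemokine receptor of effector T cells, stood at 59.5, 65.6, 67.9 and 65.8 CPM against 40.8, 40.9, 46.9 and 40.4 CPM, without overlap, and differed by 0.58 ± 0.05 and by 0.36 ± 0.07 after depth matching.

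Of 15 naive and memory genes, 6 were higher, 1 lower and 8 not called, with a median log2 difference of 0.21, and depth matching gave 6 higher, none lower and a median of 0.17. Besides Klf2 and S1pr1 the higher ones were Tcf7, Lef1, Ltb and Slamf6 with all barcodes. Slamf6, a receptor of progenitor-like T cells, went from 0.32 ± 0.06 to 0.17 ± 0.06 and was no longer called after depth matching, with an edgeR adjusted p of 0.0644, so the 6 genes were not the same. Tcf7, the TCF-1 factor of stem-like T cells, stood at 15.7, 15.1, 16.4 and 29.4 CPM without call and 11.5, 7.18, 8.44 and 24.9 CPM in nontargeting cells, a difference of 0.57 ± 0.11 with an edgeR adjusted p of 1.85e-03. It was higher in each library, but least so in IgG, where both groups were high. Lef1, a partner of Tcf7, differed by 0.41 ± 0.06 and Ltb, lymphotoxin β, by 0.37 ± 0.04, or 0.18 ± 0.03 after depth matching, while Bach2, a repressor of effector genes, was lower by -0.27 ± 0.10 with an edgeR adjusted p of 0.0472. In depth-matched barcodes Bach2 was not called, at 7.76, 6.15, 9.12 and 12.1 CPM without call against 11.5, 8.06, 8.89 and 16.5 CPM.

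Interferon-stimulated genes were higher almost throughout. Of 22 tested, 20 were higher and none lower without call, with a median log2 difference of 0.52. After depth matching 13 of 21 were higher and none lower, with a median of 0.33. The per-library medians on log2(CPM + 1) were 0.51, 0.34, 0.65 and 0.47 with all barcodes, beside 0.03, 0.02, 0.07 and 0.04 over all genes.

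Ifi203, a nuclear sensor of the IFI200 family, stood at 126, 122, 172 and 155 CPM without call and 85.1, 80.5, 118 and 108 CPM in nontargeting cells. No uncalled value was as low as a control value. It differed by 0.53 ± 0.04 with an edgeR adjusted p of 5.08e-06, and by 0.29 ± 0.04 after depth matching. Irf7, the factor that amplifies type I interferon, differed by 0.70 ± 0.08, or 0.43 ± 0.10 after depth matching, and Isg15, a ubiquitin-like modifier, by 0.60 ± 0.09. Isg15 did not pass after depth matching, at 0.37 ± 0.13 with an edgeR adjusted p of 0.0574. Ifit1, which binds foreign RNA, and Ifit3 had the largest differences at 1.37 ± 0.21 and 1.63 ± 0.25 but were rare, with 3.33, 3.08, 8.98 and 4.95 CPM of Ifit1 without call against 2.37, 1.61, 2.43 and 1.56 CPM. After depth matching Ifit1 differed by 1.23 ± 0.24 and Ifit3 by 1.02 ± 0.31.

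Other genes of the IFI200 family followed, among them Ifi214 at 0.74 ± 0.07, Ifi206 at 0.73 ± 0.08 and Ifi209 at 0.58 ± 0.09. After depth matching they were 0.40 ± 0.09, 0.33 ± 0.09 and 0.34 ± 0.08. Of 9 tested members of this list, 7 were higher and 1 lower, and 5 were higher after depth matching. All 8 genes of the GIMAP family, GTPases of lymphocyte survival, were higher by a median of 0.24, with 5 higher after depth matching and a median of 0.10. Both family lists were assembled after values were seen, and members of the IFI200 family are similar in sequence, so that reads may be shared between them.

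Promoters of these genes are shown because 20 of 22 listed interferon-stimulated genes moved together. The core of the interferon-stimulated response element, GAAA followed by any 2 bases and GAAA again, was searched on both strands of RefSeq windows on GRCm38.p6 that reach from 250 bases before to 50 bases after a gene's start. Each gene counted once, and where a gene had several windows, a window with a match was preferred. The core was present in 1079 of 27025 genes with a promoter window (3.99%). Among the genes tested it was present in 342 of 8954 (3.82%). Of 16 interferon-stimulated genes with a promoter in the table, 12 held it (75%), and of 9 tested IFI200 genes 7 held it (77.8%). It was found in 1 of 35 nucleolar genes (2.86%) and in 0 of 17 replication genes. The windows of 4 genes are given on the strand of the gene with the first match, or its reverse complement, in capitals. In the Isg15 window another match starts within the capitals and runs on in lower case.
Ifit3, chr19:34583363-34583392, plus strand: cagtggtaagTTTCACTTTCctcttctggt
Ifit1, chr19:34640775-34640804, plus strand: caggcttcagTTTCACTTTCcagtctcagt
Ifi206, chr1:173491339-173491368, minus strand: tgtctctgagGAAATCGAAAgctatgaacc
Isg15, chr4:156200877-156200906, minus strand: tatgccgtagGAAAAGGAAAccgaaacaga
A match describes the letters in the window and shows no binding in these cells.

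Inhibitory receptors differed little. Of 14 inhibitory receptors and exhaustion factors, 7 were higher and 1 lower, with a median of 0.17, and after depth matching 4 were higher and 2 lower with a median of 0.07. Pdcd1, the gene of PD-1, stood at 294, 303, 394 and 323 CPM without call and 270, 279.5, 332 and 270 CPM in nontargeting cells. Its log2 difference of 0.16 ± 0.04 passed with an edgeR adjusted p of 5.25e-03, whereas the depth-matched one of 0.06 ± 0.03 did not, with an edgeR adjusted p of 0.285. Ctla4 was higher by 0.29 ± 0.04 and Entpd1, the ectonucleotidase CD39, by 0.29 ± 0.06, and both passed after depth matching. Cd160, a receptor of activated CD8+ T cells, stood at 204, 223, 225 and 228 CPM against 237, 258, 255 and 266 CPM and was lower by -0.24 ± 0.04, or -0.30 ± 0.03 after depth matching.

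Receptors and factors of effector cells were split in direction. Of 20, 11 were higher and 3 lower, with 8 and 3 after depth matching. Itgae, the integrin CD103 of tissue-resident cells, was higher by 0.58 ± 0.08, or 0.26 ± 0.09 after depth matching, Cx3cr1, a fractalkine receptor, by 0.35 ± 0.05, and Klrd1, the CD94 receptor, by 0.25 ± 0.04. Tnfrsf9, the costimulatory receptor 4-1BB, was lower by -0.17 ± 0.04, or -0.10 ± 0.03 after depth matching, and Irf8, an activation-induced factor, by -0.25 ± 0.04. Of 8 tested CD4+ and regulatory T cell markers, 2 were higher and 2 lower, with a median of 0.11, and 2 and 2 of 7 after depth matching. The higher ones were Zbtb7b, the CD4 lineage factor ThPOK, at 0.43 ± 0.13 and Il10, an inhibitory cytokine, at 0.54 ± 0.15. Il2ra and Tnfrsf4, which activated CD8+ T cells also express, were lower by -0.31 ± 0.06 and -0.27 ± 0.05.

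**Figure D4:**
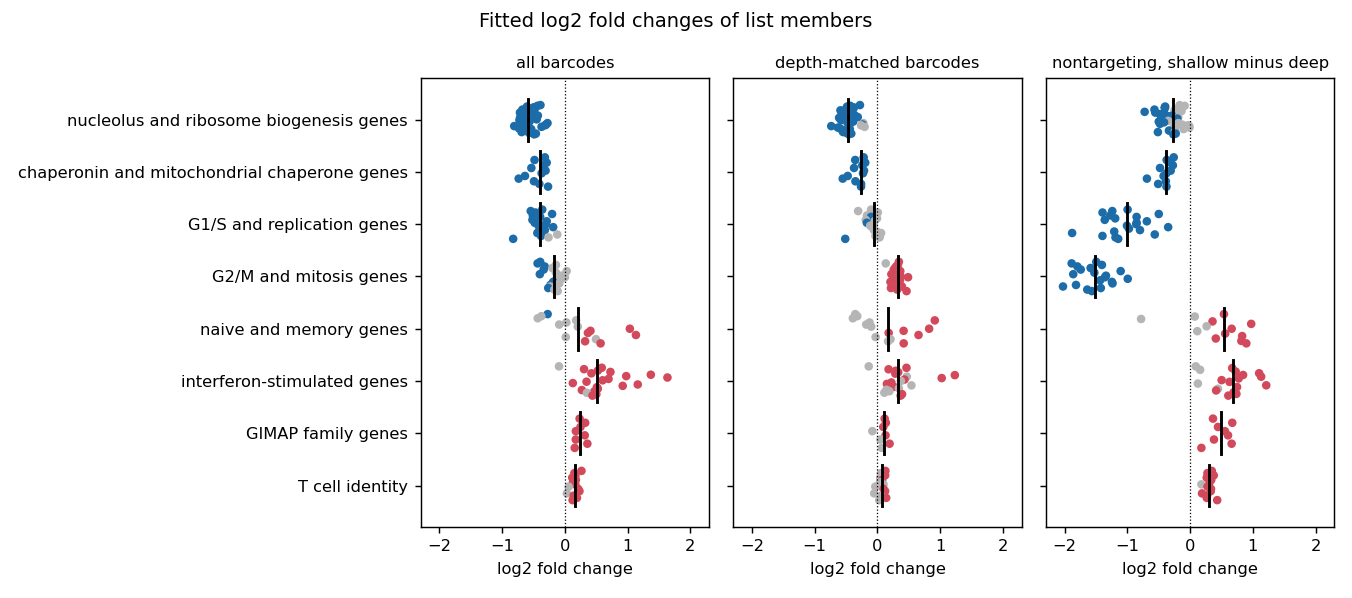
Fitted log2 fold changes (x axis) of the members of 8 gene lists (y axis), in 3 panels: no guide call minus nontargeting with all barcodes, the same with depth-matched barcodes, and nontargeting barcodes below minus above the median gene UMIs of their library. Each point is a gene, blue where called lower, red where called higher and grey where not called at an edgeR adjusted p of 0.05, and the black tick is the median. The nucleolar, chaperonin and GIMAP lists were assembled after values were seen. The mitosis genes moved from a median of -0.18 with all barcodes to 0.33 with depth-matched barcodes, while the nucleolar genes stayed below 0.

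The values of cell cycle genes changed with depth matching. Of 21 genes of G1/S and replication, 19 were lower without call and none higher, with a median of -0.39, but only 3 were lower after depth matching and the median was -0.06. Mcm3, a subunit of the replicative helicase, differed by -0.48 ± 0.09 with all barcodes and by -0.17 ± 0.05 after depth matching. Pcna, the sliding clamp of DNA polymerases, differed by -0.32 ± 0.07 with all barcodes, and by -0.06 ± 0.04 with an edgeR adjusted p of 0.393 after depth matching.

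Genes of G2/M and mitosis changed direction. With all barcodes, 8 of 20 were lower and none higher, with a median of -0.18. After depth matching 19 of 20 were higher and none lower, with a median of 0.33, beside 0.01 over all genes. Mki67, the proliferation marker Ki-67, stood at 223, 202, 197 and 209 CPM without call and 224, 189, 220 and 234 CPM in nontargeting cells with all barcodes. In that comparison it did not pass, at -0.09 ± 0.05 with an edgeR adjusted p of 0.204.

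With depth-matched barcodes Mki67 stood at 302, 233, 242 and 284 CPM without call and 224, 189, 197 and 216 CPM in nontargeting cells. All uncalled values then lay above the control values, and the difference was 0.33 ± 0.03 with an edgeR adjusted p of 4.25e-08. Ube2c, a ubiquitin-conjugating enzyme of mitotic exit, went from -0.11 ± 0.06 to 0.46 ± 0.03. It stood at 300.3, 283, 309 and 321 CPM against 213, 221, 216 and 216 CPM in the depth-matched groups. Cdk1, the mitotic kinase, went from -0.40 ± 0.08 to 0.22 ± 0.04, Ccnb1, its cyclin, from -0.34 ± 0.08 to 0.26 ± 0.07, and Birc5, survivin, from -0.14 ± 0.07 to 0.33 ± 0.04. Aurkb, a mitotic kinase, went from -0.43 ± 0.07 to 0.13 ± 0.06, which did not pass, with an edgeR adjusted p of 0.163.

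**Figure D5:**
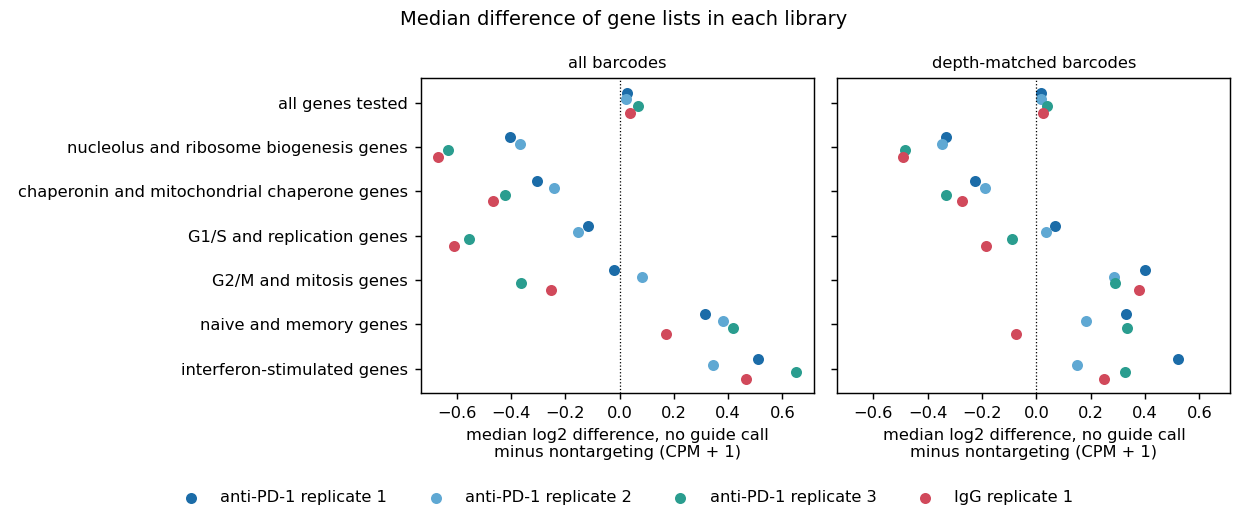
Median log2 difference on CPM + 1 (x axis), no guide call minus nontargeting, of 6 gene lists and of all genes tested (y axis), with 1 point for each of the 4 libraries, for all barcodes (left) and depth-matched barcodes (right). Nucleolar genes were below 0 and interferon-stimulated genes above 0 in each library on both sides, and mitosis genes were above 0 in each library only on the right, from 0.29 to 0.40. The nucleolar and chaperonin lists were assembled after values were seen.

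The per-library medians showed the same dependence. For G2/M genes they were -0.02, 0.08, -0.36 and -0.25 with all barcodes and 0.40, 0.29, 0.29 and 0.38 with depth-matched ones. For nucleolar genes they were -0.40, -0.37, -0.63 and -0.67, and -0.33, -0.35, -0.49 and -0.49. For the naive and memory genes the depth-matched medians were 0.33, 0.18, 0.33 and -0.08, so that IgG stood apart there.

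The remaining lists showed small or mixed differences. Of 22 glycolysis and hypoxia genes 7 were lower and 2 higher, against 5 and 3 after depth matching, among the lower ones Ldha, lactate dehydrogenase A, at -0.26 ± 0.04 with all barcodes and -0.08 ± 0.03 with depth-matched ones. Of 22 immediate early and heat shock genes 3 were lower and 4 higher, of 16 p53 targets 2 and 2, and of 19 cholesterol genes 1 and 0. After depth matching these were 3 and 0 of 22, 1 and 2 of 15, and 0 and 0 of 19. Trp53inp1, a p53 target, was higher by 0.58 ± 0.07, or 0.39 ± 0.09 after depth matching. Of 12 mitochondrially encoded genes, 5 were higher and none lower, with a median of 0.06, against 3 after depth matching with a median of 0.03. The limit on mitochondrial UMIs acts on the sum of such genes, so these counts are a description only. Among them mt-Co1 was higher by 0.21 ± 0.03, or 0.11 ± 0.02 after depth matching. The nuclear RNAs Malat1 and Neat1 were higher by 0.30 ± 0.04 and 0.44 ± 0.05, or 0.13 ± 0.02 and 0.31 ± 0.05 after depth matching.

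The same genes were read across depth within the control group, in a comparison added after seeing the data. Shallow and deep cells may differ in state as well as in depth, and these cannot be told apart here. Nontargeting barcodes below the median gene UMIs of their library were set against those above it, and 3137 of 9427 genes (33.3%) were called, 1474 (15.6%) higher and 1663 (17.6%) lower in shallow barcodes. The G2/M genes were lower in all 20 cases with a median of -1.51 and the G1/S genes in all 21 with a median of -1.01. Nucleolar genes were lower in 22 of 40, with a median of -0.28. Interferon-stimulated genes were higher in 14 of 18, with a median of 0.68.

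Single genes differed in how they related to depth. Xcl1 differed by -0.25 ± 0.09 between shallow and deep control cells and Ifng by -0.46, whereas Aurkb differed by -1.89 ± 0.14 and Ccl5 by 0.99 ± 0.05. Klf2 differed by 0.66, S1pr1 by 0.83 and Cxcr3 by 0.76. These values share the nontargeting barcodes with the main comparison and are given beside it only as levels of the same genes.

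Within the uncalled barcodes, those with at least 1 guide UMI were compared with those without any. They were deeper, with a median of 15632, 15616, 9453 and 5121.5 gene UMIs against 13084, 12902, 8222 and 4708. Of 11443 genes, 703 (6.14%) were called, 448 (3.92%) higher and 255 (2.23%) lower with guide UMIs. S1pr1 was lower by -0.54 ± 0.06, Klf2 by -0.39 ± 0.05, Ripor2 by -0.35 ± 0.05 and Ccr2 by -0.29 ± 0.03, while Mettl1 was higher by 0.37 ± 0.05, Fabp5 by 0.31 ± 0.03 and Srm by 0.26 ± 0.04. Nucleolar genes were higher in 24 of 40 and lower in none, and the interferon-stimulated genes were lower in 5 of 22 and higher in none.

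These differences between uncalled barcodes with and without guide UMIs depended on depth as well. In depth-matched barcodes 8 of 11327 genes (0.0706%) were called, 2 (0.0177%) higher and 6 (0.0530%) lower. Klf2 was among the 6, and none of the 40 nucleolar genes was called. The median over the nucleolar genes was 0.09, and that over the G2/M genes was -0.14. When only barcodes with 0 guide UMIs were set against the nontargeting cells, 3369 genes were called, against 3297 with all uncalled barcodes.

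Barcodes with 1 targeting guide were set against the same nontargeting cells to show the difference between 2 called groups. Their median depth of 16519.5, 15927, 12033 and 6507 gene UMIs was nearer to that of the nontargeting cells than that of the uncalled barcodes. Of 11833 genes, 27 (0.228%) were called, 9 (0.0761%) higher and 18 (0.152%) lower. After depth matching 12 of 10441 (0.115%) were called, 6 (0.0575%) in each direction. None of the 40 nucleolar and none of the 22 interferon-stimulated genes was among them. The 5 genes with the smallest p were Gzme at -1.32 ± 0.12, Ifitm1 at -0.20 ± 0.02, Emb at 0.25 ± 0.04, Klra5 at -0.27 ± 0.04 and Gzmb at -0.17 ± 0.03. For Xcl1 the difference was 0.09 ± 0.02 with an edgeR adjusted p of 0.101, beside -1.12 for the uncalled barcodes, and for Npm1 it was -0.02 with an edgeR adjusted p of 0.864, beside -0.60. Klf2 was called here too, at 0.34 ± 0.07 with an edgeR adjusted p of 0.0264, beside 1.04 for the uncalled barcodes, as was Gzmd at -0.71 with an edgeR adjusted p of 2.14e-03, beside -1.86. Both comparisons share the nontargeting barcodes.

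The difference between uncalled and nontargeting barcodes was not of the same size in all libraries. Anti-PD-1 replicates 1 and 2, whose titles share a name, were set against replicate 3 and IgG by an interaction term. This fit leaves 2 residual degrees of freedom, and whether replicates 1 and 2 came from separate pools is not given. Of 11605 genes, 614 (5.29%) were called, 571 (4.92%) with a higher and 43 (0.371%) with a lower effect in replicates 1 and 2. Here and below, a higher effect means a more positive signed log2 difference, not a larger one. G1/S genes were called in 20 of 21, G2/M genes in 18 of 20 and nucleolar genes in 22 of 40, all with a higher effect. The per-library medians on log2(CPM + 1) were -0.12, -0.15, -0.56 and -0.61 for G1/S genes. For nucleolar genes they were -0.40, -0.37, -0.63 and -0.67. The G1/S and nucleolar genes were thus less reduced without call in replicates 1 and 2. In depth-matched barcodes 33 of 10423 genes (0.317%) were called, 23 (0.221%) with a higher and 10 (0.0959%) with a lower effect, among them 1 G1/S gene and none of the G2/M and nucleolar genes. Fabp5 showed it most among the 5 genes with the smallest p. Its per-library log2 differences were -0.56, -0.37, -1.34 and -1.35, and the interaction was 0.88 ± 0.08, or 0.48 with an edgeR adjusted p of 2.92e-03 after depth matching.

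Ccl1, Ifitm1, Gzmd and Gzme were among the 5 genes with the smallest p after depth matching, and Ifng was also called, at -0.33 with an edgeR adjusted p of 3.62e-03. The interactions of Gzmd and Gzme were 2.95 and 2.56 there and rested on the single draw, in which their levels in replicates 1 and 2 lay far apart. Ifitm1, an interferon-induced membrane protein, was higher without call by 0.45 and 0.43 in replicates 1 and 2 and lower by -0.22 and -0.12 in replicate 3 and IgG. Ccl1, a chemokine for CCR8-bearing cells, differed by -0.19, 0.05, -0.75 and -0.67. The interactions of Ifitm1 and Ccl1 were 0.61 ± 0.06 and 0.64 ± 0.06 with all barcodes and 0.83 ± 0.07 and 0.82 ± 0.06 with depth-matched ones.

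With all barcodes no gene passed the interaction with treatment, in which the 3 anti-PD-1 libraries were set against the single IgG library. edgeR called 0 of 11605 genes (0.00%) and DESeq2 0, and 393 genes had an unadjusted edgeR p under 0.05. After depth matching 4 genes were called, all with a lower effect under anti-PD-1, and without a filter on low counts 9 were. This fit takes the spread of the lone IgG library to be that of the others. Igkc, an immunoglobulin light chain, had the smallest p, with an edgeR adjusted p of 0.189. Without replicate 3 the contrast is that of replicates 1 and 2 against IgG and called 455 genes, so that treatment and the pair of libraries cannot be told apart there.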

How the data were processed

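Gene and guide UMIs of 4 single-cell libraries (3 anti-PD-1, 1 IgG) were measured with 10x Genomics 3′ v3.1 chemistry and feature barcoding. The deposited matrices hold UMI counts per gene, guide and barcode, which the authors made with Cell Ranger 3.1.0 against mm10, and guide calls that used its automatic thresholds per guide. Here, barcodes were grouped by these calls and by the limits given in the report. Counts were summed per library and group and tested with edgeR 4.0.16 (TMM, quasi-likelihood, low counts filtered, prior count 2) in R 4.3.3, with the library as a block because both groups came from the same channel. DESeq2 1.42.0 was an alternative. Libraries held 142945121 to 155974184 gene UMIs over all barcodes, and the group sums were 29287353 to 88671620 UMIs without call and 5914121 to 10310729 for nontargeting barcodes, so that the control sums limit the counting precision. No doublet caller was run. Members, lists and tests were chosen with earlier results of these data known. Genes were named as the 12 largest rises and 12 largest falls among called genes of mean log2 CPM of at least 4 and 1 sign in all 4 libraries, leaving out receptor segments, unnamed models and the genes of the contamination limit, and as members of the lists. For the interactions and the targeting comparison the 5 smallest p decided. The tests were tested on simulated data, in which 46%, 78%, 96% and 92% of changed genes were recovered at log2 changes of 0.25, 0.5, 1 and 2 in the main comparison over 11520 genes, with 8 false calls. The simulation gave every gene the same dispersion. It held no difference in barcode depth or guide make-up between the groups, so these rates need not hold for the real data. Python 3.11.15, numpy 2.4.6, scipy 1.17.1 and pandas 2.3.3 were used. Promoter windows were RefSeq's on GRCm38.p6.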

Additional observations from a re-analysis of the deposited data

Results flagged for a closer look

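The difference between barcodes without guide call and nontargeting cells varied between the libraries. By the interaction term, 614 genes differed between anti-PD-1 replicates 1 and 2 and the other libraries, and 33 did so after depth matching. The 5 genes with the smallest p were Hist1h1b with a log2 interaction of 0.63, Pclaf with 0.63, Ccl1 with 0.64, Ifitm1 with 0.61 and Fabp5 with 0.88. Hist1h1b, a linker histone of S phase, differed by 0.08, 0.07, -0.61 and -0.52 in anti-PD-1 replicate 1, replicate 2, replicate 3 and IgG. Pclaf, a PCNA-binding protein, differed by -0.08, -0.07, -0.78 and -0.62. Replicates 1 and 2 also had the deeper barcodes and the higher share without call, and the part of these in the interaction was not tested beyond the depth-matched comparison.

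Y-linked messages, which lie outside the compared gene groups, were read in 2.37% and 1.85% of the uncalled barcodes of anti-PD-1 replicates 1 and 2. Among nontargeting barcodes they were read in 0 of 316 and in 5 of 367, or 1.36% with an exact 95% interval of 0.444 to 3.15, so that in replicate 2 the interval of the controls holds the uncalled share. Among targeting barcodes they were read in 0.506% (0.253 to 0.904) and 0.319% (0.128 to 0.655). Few of the uncalled barcodes with at least 2 such UMIs had Trbv12 UMIs, 17.1% and 11.9%, beside 34.6% and 34.3% of the uncalled barcodes without Y-linked UMI. Of the former, 90.2% and 91.0% had no guide UMI, beside 81.7% and 83.6% of the latter. Their origin was not tested.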

How the results depend on the processing

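The pairing of both groups within a library carried most calls, since without the replicate block edgeR called 3 genes between uncalled and nontargeting barcodes, 0 between uncalled barcodes with and without guide UMIs and 0 between targeting and nontargeting ones. For uncalled minus nontargeting barcodes, the 3297 genes became 1769 after thinning, 1977 within 5000 to 20000 gene UMIs, 2195 without barcodes of other lymphocyte markers (3158 where Trdc and Cd79b, seen in many barcodes of both groups, did not count as such markers, an alternative chosen after seeing the data) and 1527 after depth matching. Leaving out 1 library gave 2099 to 3252 genes, with the lowest counts without anti-PD-1 replicate 3 (2099) and IgG (2125). After depth matching it gave 1332, 1369, 1077 and 1083 genes without replicate 1, replicate 2, replicate 3 and IgG. Replicates 1 and 2 alone gave 2002 genes, or 699 depth-matched, and replicate 3 with IgG gave 3919, or 1427 depth-matched. Without the commonest nontargeting guide 1214 depth-matched genes were called. DESeq2 called 2278 genes. Without a low-count filter 3372 of 19970 genes were called, 55.5% of them higher, against 47.1% with the filter.

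Uncalled barcodes with against without guide UMIs, 703 genes, gave 282 by DESeq2, 145 thinned, 144 within 5000 to 20000 UMIs, 8 depth-matched, and 114 (without replicate 2) to 612 without 1 library. Targeting against nontargeting, 27 genes, gave 6 by DESeq2, 69 without filter, 9 thinned, 2 within 5000 to 20000 UMIs, 2 without other lymphocyte markers, 12 depth-matched, and 7 (without replicate 1) to 45 (without IgG) without 1 library. The depth split of nontargeting cells, 3137 genes, gave 1555 thinned. The interaction of the library pair, 614 genes, gave 130 by DESeq2, 29 thinned, 313 without other lymphocyte markers, 33 depth-matched, and 286 (without replicate 2) to 708 without 1 library. The interaction with treatment, 0 genes, gave 9 without filter, 1 thinned, 4 depth-matched, and 3 to 455 without 1 anti-PD-1 library. Without IgG it cannot be computed.

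Of single genes, Mki67 turned to 0.14 within 5000 to 20000 UMIs and 0.33 depth-matched. Birc5 turned to 0.13 and 0.33, Ccnb1 to 0.0252 and 0.26, and Ube2c to 0.21 and 0.46. Ube2c was also 0.16 without other lymphocyte markers and 0.0187 against all single-guide barcodes. Depth-matched values turned for Cdk1 (0.22), Aurkb (0.13), Cd8a (-0.0346) and Thy1 (-0.0522). Shares of barcodes, in percentage points, turned for Cd8a, which ranged from -0.316 to 0.668 (without replicate 2) without 1 library and was 0.0265 with under 3 contamination UMIs, for Mki67 to 0.0878 within 5000 to 20000 UMIs, and unthinned for Cd8b1 (-0.367), Pdcd1 (-3.77) and Havcr2 (-4.70). The Trav14 difference ranged from -2.46 (without replicate 2) to 1.38 (without replicate 3). The cause of these changes was not tested. Over 86 named genes and their alternatives 1548 values were computed, of which 1407 kept direction and side of the threshold, and 77 of the 86 genes lost the call without the block. Depth-matched values rest on 1 random draw, most of all for Gzmd and Gzme.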
